A study of Capra hircus with 6 samples.

Results

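The genes described here carry melatonin and cyclic AMP (cAMP) signalling in the medio-basal hypothalamus, the basal part of the hypothalamus, with the arcuate nucleus and the median eminence. They are melatonin receptors, G protein subunits and their regulators, adenylyl cyclases, cyclic nucleotide phosphodiesterases, protein kinase A (PKA) subunits, EPAC exchange factors and CREB-type transcription factors. They were chosen by symbol from a list of 47 genes. Of these, 45 matched a symbol among the 28907 rows of the count table, and GNAS and PDE1C were not analysed here. A filter on low counts left 44 of the 45, all but MTNR1B, among 16756 genes tested.

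The tissue came from adult Alpine goats, 5 of them sampled in January during the follicular phase of their ovarian cycle, and 8 sampled in mid-May during anestrus, when goats do not cycle. A further 5 goats in the luteal phase were sampled in January, and their libraries were not analysed here. RNA of each condition was combined in 2 random equimolar mixes, so each library is a pool of goats. The p-values rest on the spread between pools, estimated with information shared over all genes tested, and not on the spread between goats. Season and ovarian state differ together between the groups and cannot be told apart. Libraries held 25292678 and 17090623 counts in follicular pools 1 and 2, against 14553821 and 17910056 counts in anestrus pools 1 and 2.

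Melatonin, secreted at night by the pineal gland, acts on G protein-coupled receptors that inhibit adenylyl cyclase. In sheep its main receptor is densest in the pars tuberalis, the part of the pituitary that wraps the median eminence, where the nightly signal restrains and then sensitises cAMP production and so conveys day length. Adenylyl cyclases make cAMP and phosphodiesterases break it down. PKA and the EPAC proteins respond to it, and PKA activates CREB-type factors in the nucleus.

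Among these genes PDE10A, a phosphodiesterase that hydrolyses both cAMP and cGMP, was the 1 that passed the test, and its level in the follicular phase was 2.53-fold lower than that in anestrus. MTNR1A, which encodes melatonin receptor type 1A, had its highest level in an anestrus pool, but the difference between the groups did not pass. All 8 adenylyl cyclases had a positive log2 fold change, meaning a higher mean in the follicular phase, and none passed. Of 17 phosphodiesterases, 6 had a positive and 11 a negative one. The difference between these classes was not tested, 49.9% of all genes tested had a positive value, and so had all neuron, astrocyte and microglia markers tested. The transcription factor gene CREM and the phosphodiesterase genes PDE3A, PDE7B and PDE9A had lower levels in both follicular pools than in either anestrus pool, again without passing.

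A gene is called changed at an adjusted p under 0.05 in edgeR's quasi-likelihood test, adjusted by Benjamini-Hochberg over all genes tested. Of the 44 tested members 0 were called higher and 1 was called lower in the follicular phase. Over all genes 0.203% were called, 0.0119% higher and 0.191% lower. At an unadjusted p under 0.05 there were 5 members with a positive and 6 with a negative log2 fold change, 25.0% of the 44. Over all genes 8.55% reached that p, 4.26% with a positive and 4.29% with a negative value. Levels are given as counts relative to the scaled library total (CPM). The groups had no overlap in CPM for 27 members, 61.4% of the 44, beside 38.3% of all genes. With the follicular phase above, this held for 16 members (17.6% of all genes), and with anestrus above for 11 (20.7% of all genes). The members were chosen with earlier results of these data known, so setting these shares side by side is no test. The median log2 fold change was 0.05 over the 44 members and -0.00067 over all genes.

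**Figure D1:**
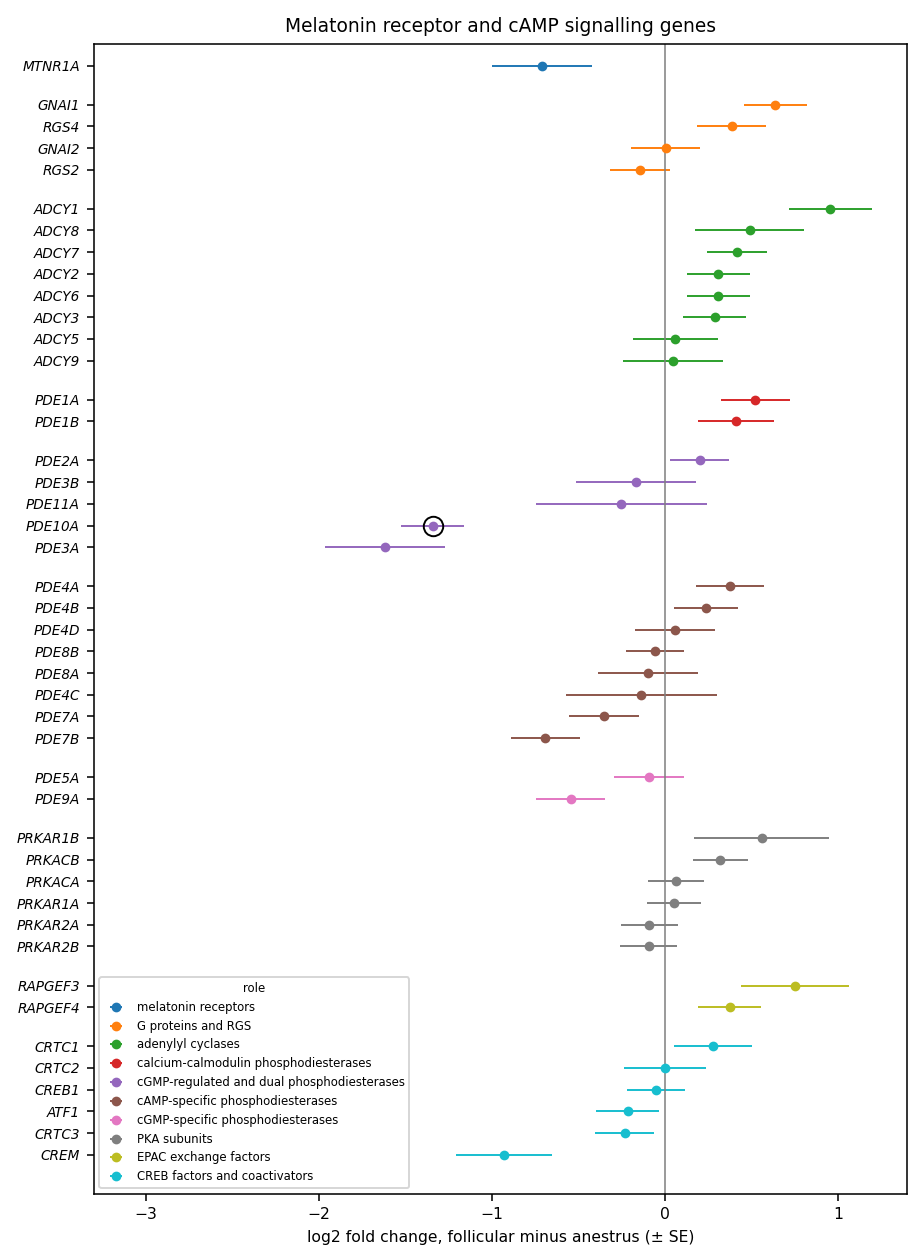
Log2 fold change, follicular minus anestrus, of the 44 tested genes (x axis, with the standard error as bars), grouped and coloured by role. PDE10A, ringed, was the 1 gene with an adjusted p under 0.05. The 8 adenylyl cyclases all lie right of 0, while PDE3A, PDE10A, CREM, MTNR1A and PDE7B lie farthest to the left.

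MTNR1A (gene 102189094) was counted 361 and 278 times in follicular pools 1 and 2, and 264 and 559 times in anestrus pools 1 and 2. Relative to the scaled library total this was 14.2 and 16.2 CPM in the follicular phase, against 18.5 and 31.0 CPM in anestrus. The groups did not overlap, but anestrus pool 1 lay nearer to the follicular pools than to anestrus pool 2. The log2 fold change was -0.71 ± 0.29 (SE) and did not pass (adjusted p = 0.514, edgeR). Leaving out anestrus pool 1 gave -1.035, which passed (adjusted p = 0.0128, edgeR), and leaving out anestrus pool 2 gave -0.243. MTNR1B, melatonin receptor type 1B, was counted 4 and 0 times in follicular pools, against 1 and 0 times in anestrus pools. A count of 3 corresponds to 0.118 and 0.174 CPM in the follicular libraries and to 0.21 and 0.167 CPM in the anestrus libraries, so MTNR1B was at about the limit of these libraries and gives no fold change.

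Of 13 pars tuberalis and pituitary markers in the table, 11 were tested and none was at 0 in all libraries. Their summed level was 5690 and 4547 CPM in follicular pools 1 and 2, against 14982 and 11589 CPM in anestrus pools 1 and 2. Most of this was CGA, the common alpha subunit of glycoprotein hormones, and TSHB, the thyrotropin beta subunit, both called lower in the follicular phase. The other 11 markers summed to 453 and 246 CPM in the follicular pools, against 640 and 470 CPM in the anestrus pools. The pools were not in the same order for all of these markers. FSHB, the follicle-stimulating hormone beta subunit, stood at 17.3 and 52.2 CPM in follicular pools, against 75.5 and 117 CPM in anestrus pools. POMC, the proopiomelanocortin gene, stood at 170 and 37.8 CPM in follicular pools, against 260 and 92.0 CPM in anestrus pools. Their part in the MTNR1A values was not tested, and in bulk tissue fewer cells of a type and less RNA per cell cannot be told apart.

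Among the G proteins, GNAI1, an inhibitory alpha subunit through which such receptors lower cAMP, stood at 123 and 141 CPM in follicular pools, against 73.9 and 95.6 CPM in anestrus pools. Its groups did not overlap, and the log2 fold change of 0.64 ± 0.18 did not pass (adjusted p = 0.301, edgeR). Without anestrus pool 2 it was 0.881 and passed (adjusted p = 0.0016, edgeR). GNAI2, another inhibitory subunit, stood at 211 and 181 CPM in follicular pools, against 232 and 159 CPM in anestrus pools. For GNAI2 the pools within each group differed by more than the group means did, and the log2 fold change was 0.00 ± 0.20. RGS4, which speeds the shut-off of Gi and Gq proteins, had a log2 fold change of 0.39 ± 0.20. RGS2, which acts mainly on Gq and can also inhibit adenylyl cyclase, had one of -0.14 ± 0.17. Neither passed.

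The adenylyl cyclases as a class summed to 373 and 339 CPM in follicular pools, against 284 and 284 CPM in anestrus pools. ADCY1, a calcium- and calmodulin-stimulated cyclase of neurons, had the smallest p of the class. It was counted 634 and 461 times in follicular pools, against 191 and 239 times in anestrus pools, which is 25.0 and 26.8 CPM in the follicular phase, against 13.4 and 13.3 CPM in anestrus. Within each group the pools were close, and the groups lay apart by a log2 fold change of 0.96 ± 0.24, a 1.94-fold ratio that did not pass (adjusted p = 0.235, edgeR). The DESeq2 Wald test called ADCY1 (adjusted p = 0.0381), as did edgeR without a count filter (adjusted p = 0.0383), without anestrus pool 1 (0.0398) and without anestrus pool 2 (0.0441).

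ADCY7, a cyclase stimulated by G protein beta-gamma subunits, stood at 74.2 and 71.9 CPM in the follicular phase, against 51.9 and 57.6 CPM in anestrus (log2 fold change 0.42 ± 0.17, adjusted p = 0.527, edgeR). ADCY6, a calcium-inhibited cyclase, stood at 77.2 and 68.3 CPM in the follicular phase, against 53.1 and 64.3 CPM in anestrus (0.31 ± 0.18, adjusted p = 0.723, edgeR). For both genes the follicular pools lay above the anestrus pools. The same order held for ADCY8, the other strongly calmodulin-stimulated cyclase, for ADCY2, which beta-gamma subunits also stimulate, and for ADCY3, the cyclase of primary cilia. Their log2 fold changes were 0.49 ± 0.31, 0.31 ± 0.18 and 0.29 ± 0.18. ADCY5, a calcium-inhibited cyclase best known from striatum, and ADCY9, a forskolin-insensitive form, overlapped between groups, at log2 fold changes of 0.06 ± 0.25 and 0.05 ± 0.29. Without follicular pool 1 the values of ADCY5 and ADCY9 turned negative, at -0.136 and -0.194, and that of ADCY5 also without anestrus pool 2, at -0.172.

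Most markers of neurons, astrocytes, microglia and oligodendrocytes had the same sign as the cyclases. A positive log2 fold change was found for all 12 neuron markers in the table, all 11 astrocyte markers, all 10 microglia markers and 14 of 15 oligodendrocyte markers. The medians were 0.35, 0.56, 0.23 and 0.76 in that order. GFAP, an astrocyte filament protein, was called higher in the follicular phase (log2 fold change 1.01 ± 0.15, adjusted p = 0.0316, edgeR), 1 of 2 such calls over all genes, and none of the other markers in these 4 lists was called. Summed neuron markers stood at 5639 and 6254 CPM in follicular pools, against 4939 and 4650 CPM in anestrus pools. Summed astrocyte markers stood at 11588 and 12552 CPM in the follicular phase, against 7576 and 7561 CPM in anestrus. Summed oligodendrocyte markers stood at 3730 and 5039 CPM in follicular pools, against 3172 and 2061 CPM in anestrus pools. Summed microglia markers stood at 517 and 532 CPM in follicular pools, against 427 and 429 CPM in anestrus pools. The median over the 8 cyclases was 0.31. Tanycyte and ependyma markers differed: of 9 tested, 3 had a positive and 6 a negative log2 fold change, with a median of -0.17. DIO2, on that list, was called lower in the follicular phase (log2 fold change -1.20 ± 0.17, adjusted p = 0.0226, edgeR). None of these markers was at 0 in all libraries, and their part in the cyclase values was not tested.

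**Figure D2:**
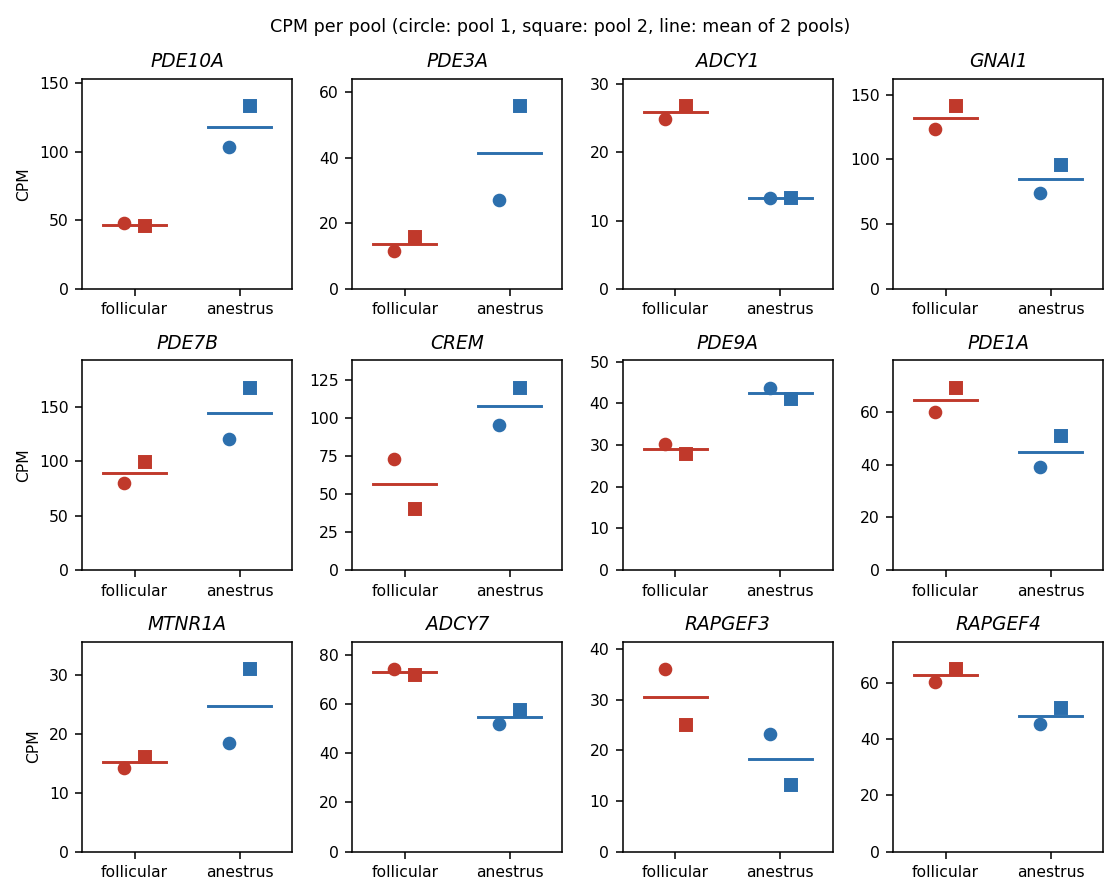
CPM in each of the 4 pools (y axis, linear from 0) for the 12 genes with the smallest unadjusted p; follicular pools are on the left and anestrus pools on the right of each panel, and lines are the means of 2 pools. In all 12 panels the groups do not overlap, 6 with the follicular pools above and 6 with the anestrus pools above. Choosing genes by p from these same pools favours such panels, and 38.3% of all genes tested had no overlap. For PDE3A and MTNR1A the anestrus pools lie far apart.

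PDE10A (gene 102173660) was counted 1216 and 781 times in follicular pools 1 and 2, against 1473 and 2395 times in anestrus pools 1 and 2. This was 47.9 and 45.4 CPM in the follicular phase, against 103 and 133 CPM in anestrus. The follicular pools nearly coincided and both anestrus pools lay more than 50 CPM above them. It averaged 46.6 ± 1.75 CPM in follicular pools and 118 ± 21.0 CPM in anestrus pools (SD, n = 2 pools each), a log2 fold change of -1.34 ± 0.18. The adjusted p was 0.0207 (edgeR), and PDE10A ranked 14 by p among the 16756 genes. The log2 fold change lay between -1.513 and -1.103 in all 12 alternatives, and 11 of them kept the call. It was lost without follicular pool 1 (log2 fold change -1.367, adjusted p = 0.51, edgeR), a fit in which 4 genes in all were called.

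PDE10A is known as an enzyme of striatal medium spiny neurons, and markers of striatum and neighbouring forebrain are given beside it. The 13 markers of that list summed to 195 and 167 CPM in follicular pools, against 172 and 192 CPM in anestrus pools, and the groups overlapped. Of its 9 tested members 0 were called and 6 had a positive log2 fold change. DRD1, a dopamine receptor of those neurons, had a log2 fold change of 0.51 ± 0.30, and DRD2, the other main one, of -0.20 ± 0.33. RGS9 and FOXP1, also on the list, had -0.37 ± 0.26 and -0.18 ± 0.19. Both were highest in anestrus pool 2, as PDE10A was. ADORA2A, an adenosine receptor abundant in striatum, had 10 and 2 counts in follicular pools, against 0 and 2 in anestrus pools. The part of these markers in the PDE10A values was not tested. In the RefSeq gene table of the goat assembly ARS1.2 the span of PDE10A overlaps 10 other annotated genes. These 10 summed to 2.40 and 2.96 CPM in follicular pools, against 2.59 and 2.61 CPM in anestrus pools, all below the CPM of PDE10A itself.

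PDE3A, a cAMP-hydrolysing enzyme that cGMP inhibits, had the most negative log2 fold change of the 44 genes. It was counted 290 and 270 times in follicular pools, against 387 and 1003 times in anestrus pools, which is 11.4 and 15.7 CPM in the follicular phase, against 27.1 and 55.7 CPM in anestrus. Both anestrus pools were above both follicular pools, but the gap between the anestrus pools was wider than that between anestrus pool 1 and the follicular pools. The log2 fold change of -1.62 ± 0.35 did not pass (adjusted p = 0.209, edgeR). The value was -2.046 with anestrus pool 1 left out and -0.962 with anestrus pool 2 left out, and PDE3A was called in 7 of the 12 alternatives, among them the DESeq2 Wald test (adjusted p = 0.000897) and the fits without follicular pool 2 or either anestrus pool.

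The other cGMP-regulated and dual enzymes showed smaller differences. PDE2A, which cGMP stimulates, had a log2 fold change of 0.20 ± 0.17 with the follicular pools above. The span of PDE2A overlaps 8 other annotated genes, which summed to 93.0 and 74.7 CPM in follicular pools, against 104 and 58.2 CPM in anestrus pools. PDE3B, the relative of PDE3A best known from fat and liver, stood at 4.13 and 5.23 CPM in the follicular phase, against 5.26 and 5.22 CPM in anestrus (log2 fold change -0.17 ± 0.35). PDE11A, another dual enzyme, was counted 34 times in each follicular pool, against 34 and 28 times in anestrus pools (-0.25 ± 0.50). None of these passed, and at such counts only a large change of PDE11A would be detectable. Summed over the 5 genes the level was 129.7 and 130.1 CPM in follicular pools, against 194 and 249.8 CPM in anestrus pools. PDE10A and PDE3A are in this sum and were the 2 of the 5 with both anestrus pools above.

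Among the cAMP-specific enzymes PDE7B, known from brain, stood at 79.7 and 99.1 CPM in follicular pools, against 121 and 168 CPM in anestrus pools. The groups did not overlap, and the log2 fold change of -0.69 ± 0.20 did not pass (adjusted p = 0.311, edgeR). It passed in 2 of 12 alternatives, at -0.91 without anestrus pool 1 (adjusted p = 0.000131, edgeR) and without a count filter (adjusted p = 0.0299, edgeR), and was -0.39 without anestrus pool 2. PDE7A, its close relative, had a log2 fold change of -0.35 ± 0.20 with the anestrus pools above. The PDE4 enzymes, the rolipram-sensitive family that acts in neurons and immune cells, did not share that sign. PDE4A and PDE4B had log2 fold changes of 0.38 ± 0.20 and 0.24 ± 0.18, with both follicular pools above both anestrus pools. PDE4D, at 0.06 ± 0.23, and PDE4C, at -0.14 ± 0.44, overlapped between groups, as did the high-affinity enzymes PDE8A, at -0.10 ± 0.29, and PDE8B, at -0.06 ± 0.17. Of these 8 enzymes 0 were called, 3 had a positive and 5 a negative log2 fold change.

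The calcium- and calmodulin-dependent enzymes had positive log2 fold changes, as the cyclases had. PDE1A stood at 60.1 and 69.1 CPM in follicular pools, against 39.0 and 50.7 CPM in anestrus pools (log2 fold change 0.52 ± 0.20, adjusted p = 0.47, edgeR). PDE1A passed in 1 of 12 alternatives, without anestrus pool 2, at 0.77 (adjusted p = 0.0296, edgeR). PDE1B, a form of striatal and other neurons, stood at 39.8 and 30.8 CPM in the follicular phase, against 25.6 and 27.5 CPM in anestrus (0.41 ± 0.22, adjusted p = 0.679, edgeR). Summed, both genes gave 99.8 and 99.9 CPM in the follicular pools, against 64.6 and 78.2 CPM in the anestrus pools.

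The cGMP-specific enzymes included PDE9A, a high-affinity form of neurons, at 30.3 and 27.8 CPM in follicular pools, against 43.7 and 41.1 CPM in anestrus pools. The pools within each group were close, and the log2 fold change of -0.54 ± 0.20 did not pass (adjusted p = 0.449, edgeR). It lay between -0.59 and -0.484 in all 12 alternatives and passed in 0. PDE5A, the target of sildenafil, stood at 38.1 and 37.1 CPM in the follicular phase, against 35.9 and 44.1 CPM in anestrus, with overlap between the groups (-0.09 ± 0.20). All 17 phosphodiesterases together summed to 699 and 727 CPM in follicular pools, against 758 and 916 CPM in anestrus pools. This sum includes PDE10A, PDE7B and PDE3A and does not show a direction shared by the class. Gene by gene, 5 had both follicular pools above and 5 both anestrus pools above, 58.8% without overlap beside 38.3% of all genes.

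**Figure D3:**
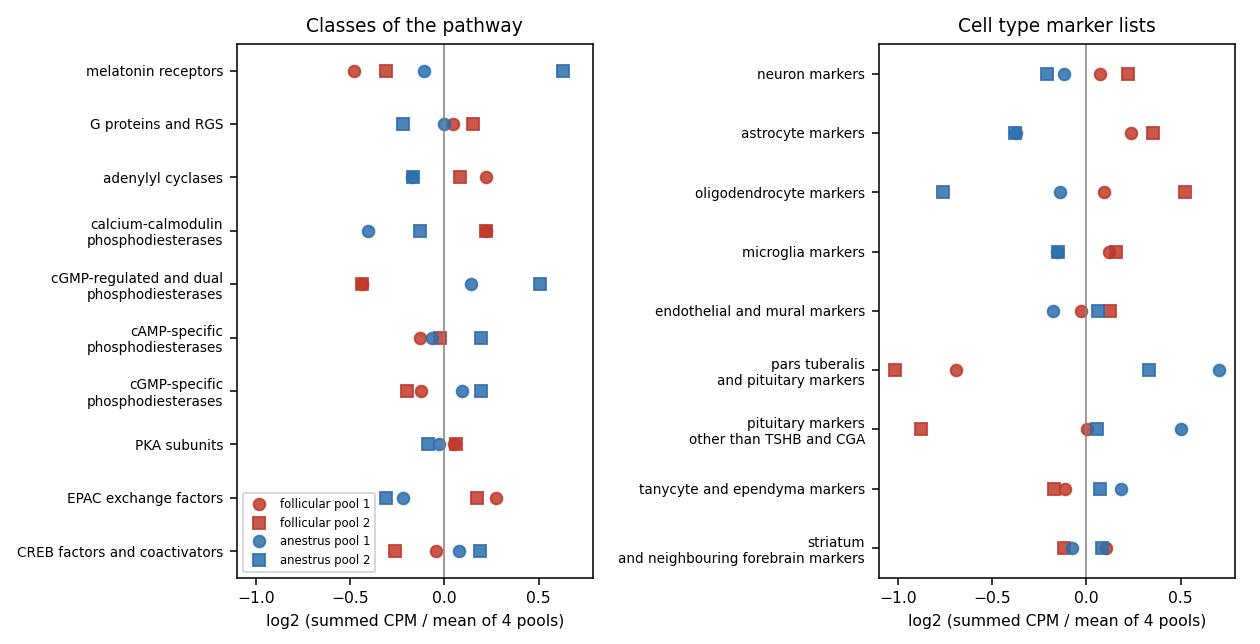
Summed CPM of each class of the pathway (left panel) and of each cell type marker list (right panel) in the 4 pools, as log2 of the ratio to the mean of the 4 pools (x axis). Follicular pools are red and anestrus pools blue. The cGMP-regulated and dual phosphodiesterases, with PDE10A and PDE3A among them, and the melatonin receptors lie to the left in the follicular pools. For the melatonin receptors anestrus pool 1 also lies left of 0, and only anestrus pool 2 lies to the right. The cyclases, PDE1 enzymes and EPAC factors lie to the right, and the summed PKA subunits close to 0 in all 4 pools. A sum does not show that all genes of a class share a direction.

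Of 6 PKA subunits 0 passed, 4 had a positive and 2 a negative log2 fold change. Their summed level, to which PRKAR1A and PRKACB gave the most counts, was 1256 and 1266 CPM in follicular pools, against 1189 and 1141 CPM in anestrus pools. PRKAR1A, a regulatory subunit found in most cells, stood at 566 and 534 CPM in the follicular phase, against 567 and 495 CPM in anestrus (log2 fold change 0.05 ± 0.16, adjusted p = 0.969, edgeR). PRKACB, a catalytic subunit abundant in brain, stood at 350 and 407 CPM in follicular pools, against 291 and 315 CPM in anestrus pools (0.32 ± 0.16, adjusted p = 0.641, edgeR). PRKACA, the other catalytic subunit, had a log2 fold change of 0.07 ± 0.16. The type II regulatory subunits PRKAR2A and PRKAR2B had -0.09 ± 0.16 and -0.09 ± 0.17. PRKAR1B, a regulatory subunit of neurons, had 0.56 ± 0.39 with pools far apart, at 39.0 and 21.1 CPM in the follicular phase, against 27.5 and 13.5 CPM in anestrus. It passed in 1 of 12 alternatives, with anestrus pool 1 left out, at 1.153 (adjusted p = 0.00487, edgeR).

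The EPAC proteins are exchange factors for the small GTPase Rap that cAMP activates directly. RAPGEF4, the form of brain and endocrine cells, stood at 60.3 and 64.8 CPM in follicular pools, against 45.3 and 51.1 CPM in anestrus pools (log2 fold change 0.37 ± 0.18, adjusted p = 0.621, edgeR). RAPGEF3, the more widespread form, stood at 36.1 and 25.0 CPM in the follicular phase, against 23.3 and 13.1 CPM in anestrus (0.75 ± 0.31, adjusted p = 0.54, edgeR). For RAPGEF3 the lower follicular pool and the higher anestrus pool were within 2 CPM of each other. Without anestrus pool 1 it was 1.221 and passed (adjusted p = 0.00232, edgeR).

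CREM encodes activators and, from an internal promoter, the cAMP-induced repressor ICER, and the counts do not separate these forms. It was counted 1854 and 688 times in follicular pools, against 1362 and 2165 times in anestrus pools, which is 73.0 and 40.0 CPM in the follicular phase, against 95.5 and 120 CPM in anestrus. The groups did not overlap, although the follicular pools differed from each other by more than follicular pool 1 did from anestrus pool 1. The log2 fold change was -0.93 ± 0.28 and did not pass (adjusted p = 0.351, edgeR). The value lay between -1.418 without follicular pool 1 and -0.564 without follicular pool 2. With no overlap between the groups, leaving out a pool could not turn its sign. With all pools kept, CREM passed without a count filter and with a replicate block by title numbers. CREB1, the main cAMP-responsive activator, gave -0.05 ± 0.17, with 75.7 and 82.2 CPM in follicular pools, against 77.7 and 85.9 CPM in anestrus pools. ATF1, its close relative, had -0.21 ± 0.18. The CREB coactivators CRTC1, CRTC2 and CRTC3 had 0.28 ± 0.22, 0.00 ± 0.24 and -0.23 ± 0.17, and none passed.

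**Figure D4:**
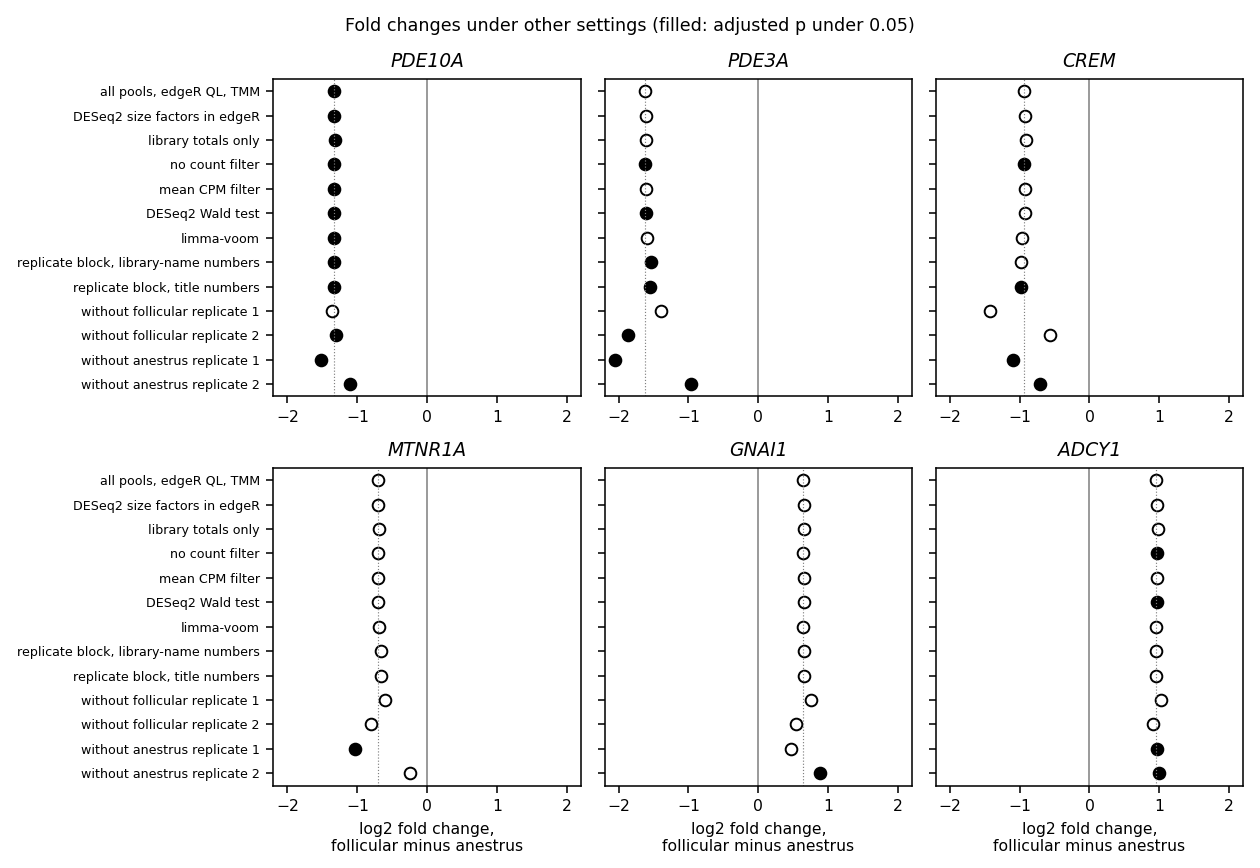
Log2 fold change, follicular minus anestrus (x axis), of 6 genes with all pools (top line of each panel, dotted line) and under 12 other settings, which are named on the y axis. Filled points have an adjusted p under 0.05. PDE10A stays between -1.513 and -1.103 and loses its call in 1 setting, while MTNR1A lies between -1.035 and -0.243, depending on which anestrus pool is left out.

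A further list held 69 melatonin and cAMP pathway genes outside the members, of which GNAQ and PRKACG were not analysed here. Of the 54 rows tested 0 were called, 32 had a positive and 22 a negative log2 fold change, and the median was 0.06. CREB3L2, a membrane-bound relative of CREB of the secretory pathway, had the smallest p, at 90.2 and 99.7 CPM in follicular pools, against 144 and 162 CPM in anestrus pools (log2 fold change -0.69 ± 0.16, adjusted p = 0.218, edgeR). SIK1, a CREB-induced kinase that restrains CRTC coactivators, had 0.90 ± 0.30, with 69.0 and 35.5 CPM in the follicular phase, against 26.9 and 29.2 CPM in anestrus. GNA11, a Gq-type alpha subunit, had 0.67 ± 0.25.

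Receptors and peptides that act through cAMP gave the same picture of no call. Of 24 tested from a list of 30, 0 were called, with 17 positive and 7 negative log2 fold changes. ADCYAP1, the precursor of the cAMP-raising peptide PACAP, stood at 126 and 139.5 CPM in follicular pools, against 86.9 and 73.7 CPM in anestrus pools (log2 fold change 0.73 ± 0.17, adjusted p = 0.216, edgeR). ADORA1, an adenosine receptor that lowers cAMP, had 0.91 ± 0.30, and VIPR1, a receptor for vasoactive intestinal peptide, had -1.16 ± 0.44.

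Known CREB target genes, 26 in all and all tested, gave 0 calls, with 22 positive and 4 negative log2 fold changes and a median of 0.26. Over all genes 49.9% were positive. Of the 26, 14 were highest in follicular pool 1. Their summed level was 6832 and 4991 CPM in follicular pools 1 and 2, against 5221 and 5303 CPM in anestrus pools, so the groups overlapped. CREM, a member described above, is not on this list. PER2, a circadian clock gene, was among the 4 with a negative value, at 21.5 and 23.1 CPM in follicular pools, against 52.9 and 38.0 CPM in anestrus pools (log2 fold change -1.03 ± 0.23, adjusted p = 0.178, edgeR). The activity-induced factors NPAS4 and NR4A3 had 1.99 ± 0.40 and 0.75 ± 0.23, the opposite sign to that of CREM.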

How the data were processed

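The deposited table holds raw read counts per gene, whole numbers that the authors did not normalize. TriReagent RNA went into libraries made with a stranded mRNA kit, per the labels' protocols. The submitters' processing notes name featureCounts 2.0.0, SAMtools 1.9, TopHat2 2.1.1, Bowtie2 2.3.5.1, FastQC and bcl2fastq 2.20. Genome build, annotation and strand setting were not given in the sources used here, so no coordinates are printed, and reads of overlapping genes or close copies may be shared. Of the 45 members in the table, 35 had no overlapping gene in the RefSeq table of assembly ARS1.2, which held all 45 identifiers under the same symbol.

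Genes were filtered with edgeR's filterByExpr (minimum count 10, minimum total 15), scaled by TMM, and fitted in R 4.3.3 with edgeR 4.0.16 (glmQLFit with robust estimation, glmQLFTest, 1 mean per group, 2 residual degrees of freedom). CPM use the TMM-scaled library total, are not divided by gene length, and are not compared between genes. Log2 fold changes are follicular minus anestrus. Their standard errors are the absolute log2 fold change divided by the square root of F from the quasi-likelihood test. Alternatives, 12 in all, used limma-voom (limma 3.58.1), the DESeq2 1.42.0 Wald test, other scalings and filters, replicate blocks and leaving out each pool. The anestrus pools are numbered the other way round in the titles, and the numbers here follow the library names that head the columns.

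The members and the 3 pathway and 8 marker lists were chosen with earlier results of these data known. All members are reported. Values per pool were given for the melatonin receptors, called members, the 12 with the smallest p and the gene with the highest mean of each class, and up to 3 genes with the smallest p were named per pathway list. Other genes given per pool, and DRD1, DRD2, ADORA2A, RGS9, FOXP1 and DIO2, were added after their values were seen. On counts simulated for this comparison, with 200 of 16542 genes changed, 40.3% of genes with a 2-fold change, 82.1% with 4-fold and 92.4% with 8-fold were called, and 7 of 150 calls were false.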

Additional observations from a re-analysis of the deposited data

How the results depend on the processing

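PDE10A was the 1 called member, and its direction held in all 12 alternatives. With no overlap between its groups, leaving out a pool could not turn that direction, and the other alternatives refit the same pools. The number of members called, 1 of 44 with all pools, was 5 without a count filter, 3 in the DESeq2 Wald test, 2 with a replicate block by library-name numbers and 3 with one by title numbers, and it ranged from 0 to 8 when each pool was left out in turn. Over all genes the 34 calls became 300 without a count filter, 143 in DESeq2, 90 and 130 with those replicate blocks, and 4 to 810 with a pool left out. The lowest count came with follicular pool 1 left out. It was 95 for follicular pool 2, 810 for anestrus pool 1 and 583 for anestrus pool 2. Such a fit has no spread for the group left with 1 pool, which is assumed to vary like the other group, so the fits with more calls cannot decide which genes changed. The cause of the other shifts was not tested. Both blocks added a call of PDE3A (adjusted p = 0.0142 by library name and 0.00104 by title, edgeR), and the block by title numbers added one of CREM (0.00642). The block values come from numbers shared in the labels, which no label ties to a shared batch. Deviations of same-numbered libraries correlated at 0.26 over genes by library name. The title numbers swap the anestrus pools, so their value of -0.26 is the same measurement with its sign turned.

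The median log2 fold change of the members ran from 0.0239 to 0.163 with a pool left out, and that of MTNR1A from -1.035 to -0.243. Signs of uncalled members turned in some of these fits, and in no other alternative. Over the 4 fits ADCY5 ran from -0.1715 to 0.3978, ADCY9 from -0.194 to 0.2584, PDE3B from -0.341 to 0.01435, PDE4C from -0.4683 to 0.3463, PDE4D from -0.258 to 0.5109 and PDE5A from -0.2312 to 0.1125. Likewise PDE8A ran from -0.3452 to 0.2487, PDE8B from -0.09604 to 0.02877, PDE11A from -0.5476 to 0.07689, PRKAR2B from -0.2128 to 0.08004, CREB1 from -0.1244 to 0.06578, CRTC2 from -0.1309 to 0.2031 and GNAI2 from -0.199 to 0.2995. At this depth and number of pools, 40.3% of simulated 2-fold changes were called.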
